A study of Mus musculus with 10 samples.

Results

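The genes described here are 10 of the 55385 in the deposited count table: the 5 subunits of the transcription factor NF-kB (Nfkb1, Nfkb2, Rel, Rela and Relb) and 5 genes that restrain NF-kB or answer to it (Nfkbia, Nfkbie, Tnfaip3, Birc3 and Traf1). They were taken by symbol, each symbol matched 1 row, and all 10 passed the filter on low counts. The libraries are bulk RNA sequencing of APV245, a mouse ovarian tumour line from an Arid1a and Pik3ca co-mutated tumour, spelled APC245 in the design text. Of the 10 libraries, 5 are labelled IL6 shRNA1 (genotype IL6 knockdown) and 5 control shRNA (genotype WT, a non-mammalian shRNA in pLKO.1-puro). Whether a knockdown line was 1 clone or a pool is not given in the sources used here. All carry the line's mutations and the label "no treatment", and the labels give neither an animal age nor a statement that samples came from separate animals or cultures, so p-values measure the spread between these samples, which may be technical. The design text speaks of tumours grown under the skin, whereas the sample labels speak of cells in DMEM culture. Gene positions are those of the deposited table, for whole genes in GRCm38. Total counts ran from 17905397 to 19934278 in the libraries labelled IL6 shRNA1 and from 18224751 to 22682346 in control.

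NF-kB works as a dimer of Rel-homology proteins that is held in the cytoplasm by inhibitors of the IkB family. In the canonical arm, receptors for TNF, IL-1 and Toll ligands activate the IKK complex, IkB is degraded, and dimers of RelA or c-Rel with p50 (from Nfkb1) enter the nucleus. In the non-canonical arm, receptors such as the lymphotoxin-beta receptor and CD40 stabilise the kinase NIK, which lets p100 (from Nfkb2) be processed to p52, the partner of RelB. NF-kB raises transcription of its own inhibitors and of several of its subunits, so their mRNA levels are widely used as readouts of the pathway, in tumour cells and in the leukocytes of a tumour alike. Protein processing and nuclear entry are not seen in mRNA counts.

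Promoter sequence shows which of the genes carry letters of the NF-kB binding motif next to their start site. RefSeq promoter windows of build GRCm38.p6, from 250 bases before to 50 after a start site, were matched for 8 of the 10 genes, 11 windows in all. Those of Nfkb1 and Relb were not used here. Both strands were searched for the kB consensus: GGG, a purine, a pair of any bases, a pair of pyrimidines and CC. It was present for 5 of the 8 genes (Nfkb2, Rel, Nfkbia, Nfkbie and Tnfaip3) and for 9.55% of the 27025 genes with a window. It was in 7 of the 11 windows and in 8.46% of all 32851 windows. The windows of Rela, Birc3 and Traf1 did not hold these letters. The sequences shown are those of Rela, the gene called lower below, and of Nfkbie and Tnfaip3, whose levels followed the leukocyte markers most closely among the feedback genes, with Nfkbia, Rel and Nfkb2 for comparison. Each is written 5′ to 3′ on the gene's strand, with matches in capitals. For Nfkb2 and Tnfaip3, whose windows lie inside the deposited gene model (that of Tnfaip3 all but 3 bases), the last 30 bases before the start site are given, and for the others the bases of the window that lie before both the start site and the gene model.
Rela, chr19:5637291-5637482, plus strand: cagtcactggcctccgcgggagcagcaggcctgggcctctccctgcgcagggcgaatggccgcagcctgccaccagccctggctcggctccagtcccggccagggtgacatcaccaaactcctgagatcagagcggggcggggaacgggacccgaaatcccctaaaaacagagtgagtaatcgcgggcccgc
Nfkbie, chr17:45555450-45555699, plus strand: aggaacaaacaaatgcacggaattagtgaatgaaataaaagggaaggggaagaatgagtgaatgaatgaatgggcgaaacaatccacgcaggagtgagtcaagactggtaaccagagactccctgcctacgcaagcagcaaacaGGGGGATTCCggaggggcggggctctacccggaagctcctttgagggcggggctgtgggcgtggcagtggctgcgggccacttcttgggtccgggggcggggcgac
Tnfaip3, chr10:19015411-19015440, minus strand: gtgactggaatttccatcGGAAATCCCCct
Nfkbia, chr12:55492648-55492897, minus strand: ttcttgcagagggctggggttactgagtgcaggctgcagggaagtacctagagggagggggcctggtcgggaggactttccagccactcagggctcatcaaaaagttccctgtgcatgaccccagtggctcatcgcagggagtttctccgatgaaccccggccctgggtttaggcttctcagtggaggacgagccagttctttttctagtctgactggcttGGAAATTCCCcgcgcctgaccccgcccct
Rel, chr11:23770971-23771219, minus strand: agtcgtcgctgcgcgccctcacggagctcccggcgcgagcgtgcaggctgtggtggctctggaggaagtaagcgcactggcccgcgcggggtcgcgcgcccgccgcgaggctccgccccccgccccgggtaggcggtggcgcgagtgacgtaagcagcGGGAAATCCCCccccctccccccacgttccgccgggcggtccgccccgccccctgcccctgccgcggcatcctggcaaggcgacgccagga
Nfkb2, chr19:46304707-46304736, plus strand: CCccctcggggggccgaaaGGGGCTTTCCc
Relative to the start site the match of Nfkbia lay at bases -29 to -20 and that of Nfkbie at -106 to -97. The one shown whole for Nfkb2 lay at -11 to -2 and the one shown for Tnfaip3 at -12 to -3. The same window of Tnfaip3 held another match at -125 to -116, before the stretch shown. The leading capitals of the Nfkb2 stretch end another match. A match describes the letters and does not show that the factor is bound.

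**Figure D1:**
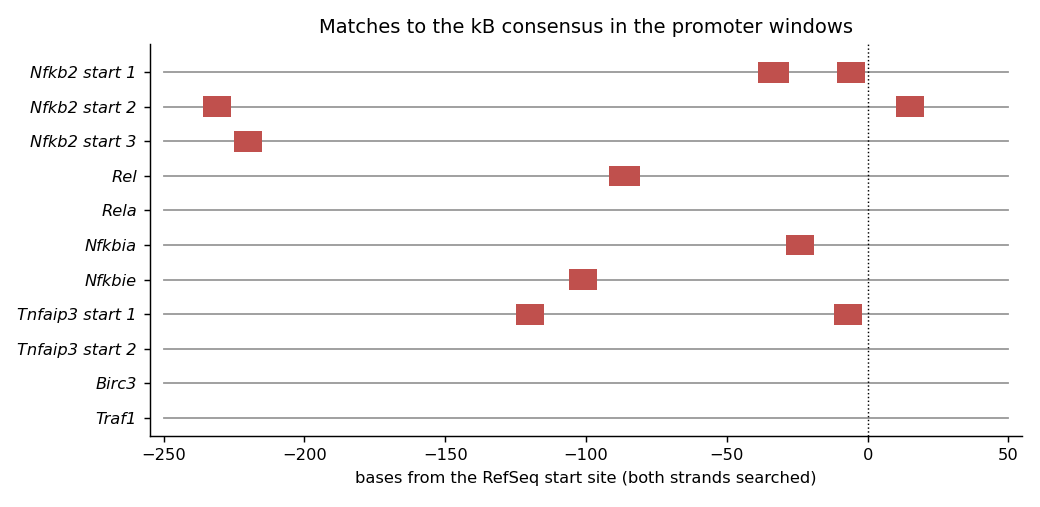
Positions of motif matches in the 11 promoter windows, in bases from the start site (dotted line). Red blocks are matches to the kB consensus on either strand; the windows of Rela, Birc3 and Traf1 and the second window of Tnfaip3 hold none.

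Il6, the gene named by the shRNA label, was checked first. It stood at 1.07, 1.83, 2.18, 1.80 and 1.75 CPM in libraries 1 to 5 labelled IL6 shRNA1 and at 1.61, 0.438, 2.06, 1.34 and 0.830 CPM in control libraries 1 to 5 (CPM, counts scaled to the library total and its TMM factor). The groups overlapped, and the mRNA was not lower under the shRNA label (log2 fold change 0.44 ± 0.36 SE, adjusted p = 0.436; exact two-sided permutation p = 0.214). Higher and lower therefore refer to the labels, and in each pair of values the first belongs to the libraries labelled IL6 shRNA1 and the second to control.

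Markers of other cell types were counted in every library. Of 28 leukocyte markers 23 were tested, 11 were higher and 0 lower by edgeR. Over all genes tested edgeR called 5.62% higher and 6.16% lower, and 15.5% were higher at an unadjusted p under 0.05. DESeq2 called 10% of its genes higher and 7.78% lower. The summed level of the leukocyte list ran from 3239.9 to 6429 CPM in the libraries labelled IL6 shRNA1 and from 1207 to 3397 CPM in control. The most abundant by FPKM was Cd74, which encodes the invariant chain of MHC class II, at 2238 ± 769 against 858 ± 433 CPM (SD, n = 5 each), and Ptprc, the pan-leukocyte marker CD45, stood at 106 ± 24.1 against 58.3 ± 27.7 CPM (adjusted p = 0.102). None of the 28 was at 0 in all 10 libraries, though the neutrophil marker Ly6g had only 1 count, in IL6 shRNA1 library 3, and 0 in every other library of both groups. The leukocyte score of a library, the mean centred log2 CPM of the 23 markers, was 0.50 ± 0.33 against -0.50 ± 0.62 (SD, n = 5; exact permutation p = 0.0159). It was -0.075 in library 1 labelled IL6 shRNA1 and at least 0.60 in the other 4, and lowest in control library 2 (-1.43). Skeletal muscle, fat and skin markers summed to between 134 and 7546 CPM in the first group and between 25.3 and 801 CPM in control, Acta1 being the most abundant, and edgeR called 0 of the 4 tested (2 at an unadjusted p under 0.05, 2 by DESeq2). Endothelial markers, led by Cdh5, and fibroblast or pericyte markers, led by Dpt, were all tested, and edgeR called none of the 5 of either list (at an unadjusted p under 0.05, 1 and 0; by DESeq2, 1 and 0). Of 8 epithelial and mesothelial markers of the line's tissue 7 were tested, led by Krt8, 1 was called (Upk3b, higher) and Pax8 was below the filter. In such bulk libraries a change in the number of cells of a type and a change in RNA per cell cannot be told apart.

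Across the 10 genes 1 was lower, Rela, 0 were higher and 9 were not called by edgeR's quasi-likelihood test at an adjusted p under 0.05, while 11.8% of the 15064 genes tested were called, 5.62% higher and 6.16% lower. At an unadjusted p under 0.05, 4 of the 10 were higher (Nfkb1, Nfkbie, Tnfaip3 and Birc3), and 15.5% of all genes tested were. DESeq2 likewise called 1 of the 10, Rela, against 17.8% of its genes. Fold changes were positive for 8 of the 10, and for 47.9% of all genes, and their median was 0.18 against -0.013 over all genes. A count of 1 in 10 is near the share called among all genes. The largest of the positive fold changes, that of Nfkbie, lay at percentile 87.1 of all genes tested. The plot of CPM by library shows Rela as the one gene of the 10 whose groups were apart.

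**Figure D2:**
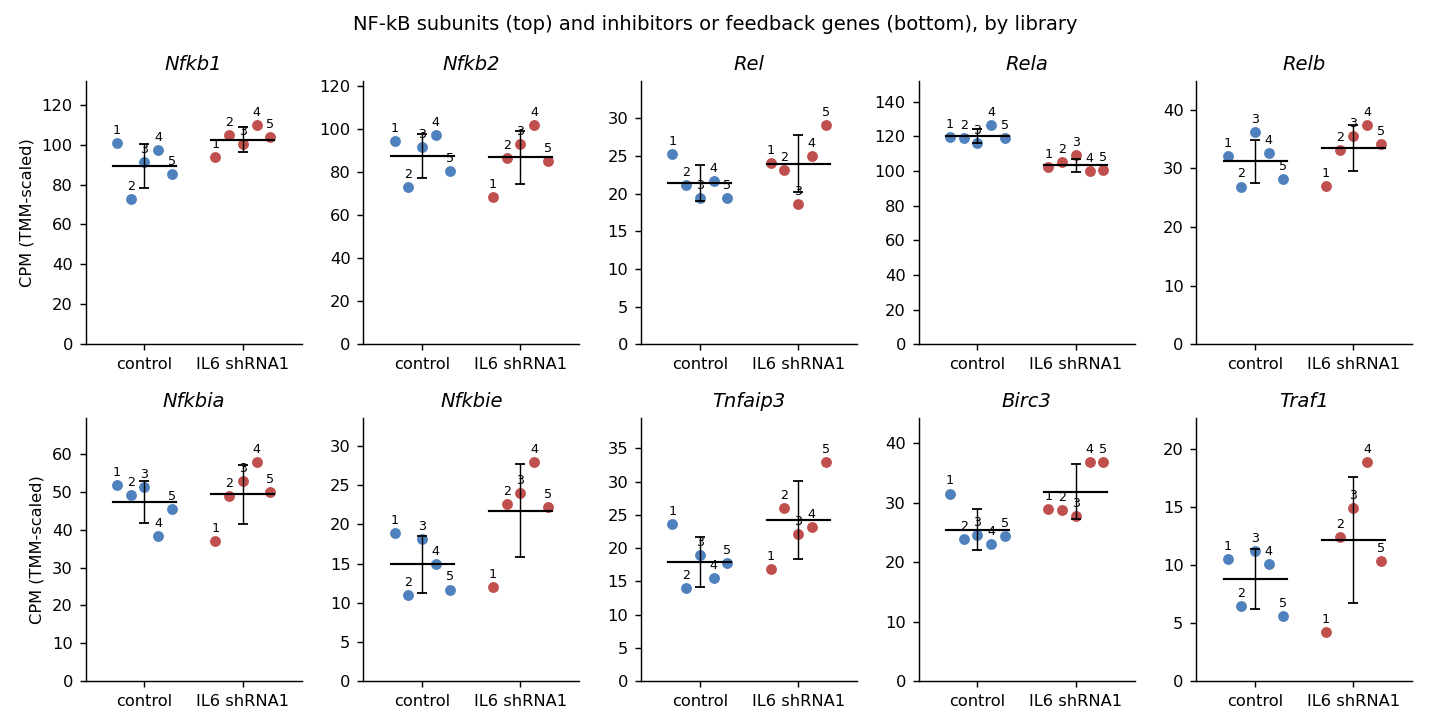
CPM of the 10 genes in each library, numbered as in the sample titles, with control in blue and libraries labelled IL6 shRNA1 in red; black lines are means and bars 1 SD (n = 5). Rela is lower in all 5 red points than in any blue point, and red library 1 is the lowest red point for Nfkb1, Nfkb2, Relb, Nfkbia, Nfkbie, Tnfaip3 and Traf1.

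Rela (ENSMUSG00000024927.8, chromosome 19, 5637483 to 5648130, plus strand) encodes RelA or p65, the main activating subunit of the canonical arm. Its level was 102, 105, 109, 99.8 and 100.3 CPM in libraries 1 to 5 labelled IL6 shRNA1 and 119.8, 119, 116, 127 and 119 CPM in control libraries 1 to 5. Every control library lay above every library labelled IL6 shRNA1, and 6.13% of all genes tested were apart in that way. Rela fell from 120.3 ± 3.81 to 103 ± 3.8 CPM (SD, n = 5 each; log2 fold change -0.22 ± 0.052 SE, 95% interval -0.33 to -0.11, adjusted p = 0.0234), a fold of 0.859. The estimate stayed between -0.23 and -0.20 in all 21 alternatives, but the call did not: it was lost without any 1 of IL6 shRNA1 libraries 2, 4 and 5 and control libraries 2 and 5 (adjusted p from 0.0552 to 0.0620), in fits that called 2.71 to 3.75% of genes lower. The call was lost in 11 of the 21, also with no filter (adjusted p = 0.126) and on log2(FPKM + 1) and log2(FPKM + 0.1) (0.0649 and 0.0948). It was lost as well with the leukocyte score as a covariate (-0.21 ± 0.085 SE, adjusted p = 0.364), where 0.113% of genes were called lower, and without IL6 shRNA1 library 5 and control libraries 2 and 5, the 3 libraries farthest out on the first principal component (adjusted p = 0.185), where 0.533% were.

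Nfkb1 (ENSMUSG00000028163.17, chromosome 3, 135584655 to 135691547, minus strand), which encodes p105 and its product p50, was measured at 93.6, 105, 100.5, 109.9 and 104 CPM in the libraries labelled IL6 shRNA1 and at 101, 72.9, 91.1, 97.4 and 85.2 CPM in control. All 5 of the first lay above the control median and 3 above every control, but the groups overlapped and the difference was not called (log2 fold change 0.20 ± 0.088 SE, 95% interval 0.0039 to 0.39, adjusted p = 0.154). Rel (ENSMUSG00000020275.9, chromosome 11, 23736847 to 23770970, minus strand), the gene of c-Rel, a subunit known from lymphoid and myeloid cells, had 24.05, 23.1, 18.6, 25.02 and 29.1 CPM against 25.2, 21.2, 19.4, 21.6 and 19.4 CPM. Its groups overlapped over most of their range, with the highest value in IL6 shRNA1 library 5 (log2 fold change 0.17 ± 0.12 SE, 95% interval -0.096 to 0.43, adjusted p = 0.371). Of the canonical subunit genes Rela alone passed the test. The uncurated transcript model Gm43430, inside Nfkb1 on the same strand, had 14 counts in all against 19248 for Nfkb1.

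The subunit genes of the non-canonical arm overlapped between the groups almost throughout. Nfkb2 (ENSMUSG00000025225.15, chromosome 19, 46304320 to 46312385, plus strand), the gene of p100 and p52, stood at 68.2, 86.4, 92.9, 102 and 84.9 CPM in the libraries labelled IL6 shRNA1 and at 94.4, 73.00, 91.6, 97.04 and 80.3 CPM in control, with the lowest and the highest of the 10 values in the same group (log2 fold change -0.0066 ± 0.11 SE, 95% interval -0.25 to 0.24, adjusted p = 0.976). The sign of this near-zero estimate turned with the scaling, as with RLE factors it was 0.0078. The gene overlaps Psd and 4833438C02Rik on the opposite strand, which had 1603 and 772 counts in all against 17509 for Nfkb2, and the strand setting of the counting is not given in the sources used here. Relb (ENSMUSG00000002983.17, chromosome 7, 19606217 to 19629438, minus strand), the gene of RelB, stood at 27.04, 33.1, 35.5, 37.4 and 34.1 CPM against 32.2, 26.9, 36.1, 32.5 and 28.1 CPM (log2 fold change 0.10 ± 0.11 SE, 95% interval -0.13 to 0.33, adjusted p = 0.548). IL6 shRNA1 library 1 and control library 2 were the lowest of their groups for both genes. The intervals leave room for a change of Nfkb2 between -16.05% and 18.03%, and for a change of Relb between -8.58% and 25.96%.

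Of the inhibitor genes, neither Nfkbia nor Nfkbie was called over all 10 libraries, and they were not tested against each other. Nfkbia (ENSMUSG00000021025.8, chromosome 12, 55489410 to 55492647, minus strand) encodes IkB-alpha, the fast feedback inhibitor whose promoter holds the match shown above. It stood at 37.1, 48.95, 52.9, 58.1 and 50.02 CPM in the libraries labelled IL6 shRNA1 and at 51.9, 49.2, 51.3, 38.4 and 45.4 CPM in control, with the lowest values in IL6 shRNA1 library 1 and control library 4 (log2 fold change 0.064 ± 0.12 SE, 95% interval -0.20 to 0.33, adjusted p = 0.758). Nfkbie (ENSMUSG00000023947.8, chromosome 17, 45555703 to 45563169, plus strand), the gene of IkB-epsilon, was at 11.97, 22.6, 24.02, 28.04 and 22.2 CPM against 18.9, 10.96, 18.1, 14.9 and 11.7 CPM. In 4 of the 5 libraries labelled IL6 shRNA1 it exceeded every control, and library 1 lay among the lowest controls (log2 fold change 0.54 ± 0.22 SE, 95% interval 0.050 to 1.04, adjusted p = 0.129). Without that library Nfkbie was called higher (0.71 ± 0.17 SE, adjusted p = 0.0198), in a fit that called 9.47% of genes higher.

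Tnfaip3, Birc3 and Traf1 act on the ubiquitin steps below the TNF receptor family. Tnfaip3 (ENSMUSG00000019850.11, chromosome 10, 19000910 to 19015657, minus strand) encodes A20, an enzyme that edits ubiquitin chains and ends the signal, and it stood at 16.8, 26.1, 22.1, 23.2 and 33.03 CPM in the libraries labelled IL6 shRNA1 and at 23.7, 13.9, 18.9, 15.5 and 17.8 CPM in control. The groups overlapped, with the highest value in IL6 shRNA1 library 5 and libraries 1, 3 and 4 inside the control range (log2 fold change 0.43 ± 0.18 SE, 95% interval 0.027 to 0.84, adjusted p = 0.138). Without library 1 it was called higher (adjusted p = 0.0470). Birc3 (ENSMUSG00000032000.17, chromosome 9, 7848699 to 7873186, minus strand), the gene of the ubiquitin ligase cIAP2, had 28.9, 28.8, 27.8, 36.9 and 36.8 CPM against 31.6, 23.9, 24.6, 23.02 and 24.4 CPM, and control library 1 alone among controls reached the range of the other group (log2 fold change 0.32 ± 0.12 SE, 95% interval 0.065 to 0.58, adjusted p = 0.0924). Without that control library Birc3 was called higher (log2 fold change 0.42, adjusted p = 0.0352), in a fit that called 6.95% of genes higher. Traf1 (ENSMUSG00000026875.14, chromosome 2, 34941750 to 34961772, minus strand), an adaptor gene of that receptor family, had the largest standard error of the 10, with 4.22, 12.4, 14.9, 18.9 and 10.4 CPM against 10.6, 6.48, 11.3, 10.1 and 5.64 CPM, on 79 to 389 counts (log2 fold change 0.47 ± 0.35 SE, 95% interval -0.30 to 1.23, adjusted p = 0.389). Its lowest and its highest value both came from libraries labelled IL6 shRNA1. As a list the 5 inhibitor and feedback genes had a median log2 fold change of 0.43, the 5 subunits one of 0.10.

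Levels of different genes were compared in FPKM, fragments scaled to gene model length and library total, as deposited. Over the 10 libraries Rela was highest at 36.4 ± 3.59 FPKM (SD, n = 10), followed by Nfkbia at 30.1 ± 4.92 and Nfkb2 at 19.1 ± 3.09 FPKM. A middle group held Relb (8.35 FPKM), Nfkb1 (7.98), Nfkbie (6.07) and Birc3 (5.73). Rel (3.03 FPKM), Tnfaip3 (2.93) and Traf1 (1.21) were lowest. Of the neighbours in this order, Relb exceeded Nfkb1 in 7 of 10 libraries, Nfkbie exceeded Birc3 in 5 and Rel exceeded Tnfaip3 in 6, so these pairs did not differ beyond their spread. Rela exceeded Nfkbia and Nfkb1 exceeded Nfkbie in 9 libraries each, and the other 4 neighbours kept their order in all 10. The plot of FPKM by gene shows each library.

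**Figure D3:**
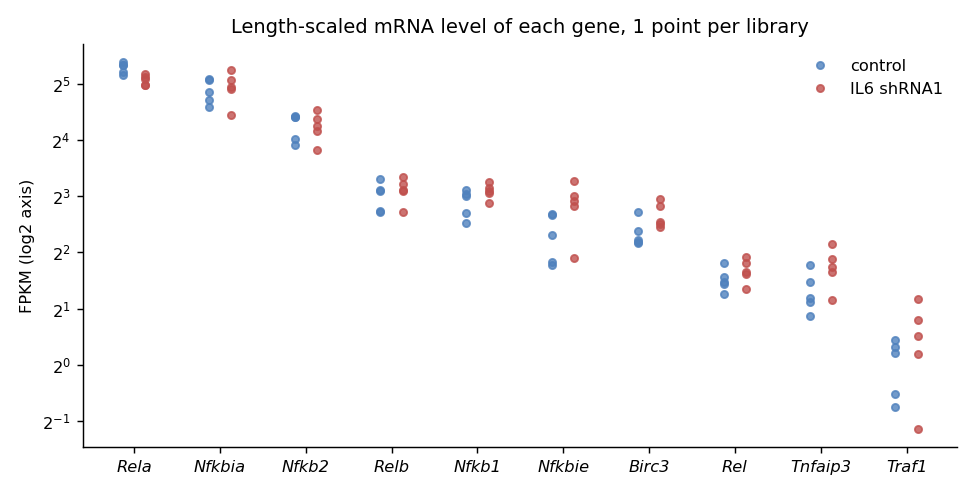
FPKM of each gene on a log2 axis, 1 point per library, control in blue and libraries labelled IL6 shRNA1 in red, genes in order of their mean over the 10 libraries. Rela leads at a mean of 36.4 FPKM and Traf1 is last at 1.21 FPKM.

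As shares of the summed FPKM of the 5 subunit genes, Rela took 46.2 ± 2.93% in the libraries labelled IL6 shRNA1 and 51.3 ± 2.66% in control (SD, n = 5), with ranges of 42.3 to 50.4% and 48.98 to 55.04%. Nfkb1 took 11.7 ± 0.379% against 9.67 ± 0.695%. The shares of Rela overlapped between the groups and those of Nfkb1 did not. The size of each share depends on the gene model lengths given above. The ratio of Nfkb1 to Rela in FPKM, chosen after the values were seen and given without a test, was 0.233, 0.254, 0.235, 0.281 and 0.264 in libraries 1 to 5 labelled IL6 shRNA1 and 0.214, 0.156, 0.199, 0.196 and 0.182 in control libraries 1 to 5. All 5 of the first were above all 5 of the second. The ratio of Nfkbia to Rela, inhibitor to activator, overlapped, at 0.914 ± 0.150 against 0.752 ± 0.107 (SD, n = 5). So did that of Nfkb2 to Relb, at 2.20 ± 0.0783 against 2.38 ± 0.153.

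The genes other than Rela varied together from library to library. Among them all 36 pairs had a positive Pearson r of log2 CPM over the 10 libraries, from 0.00897 to 0.93 with a median of 0.63, while 8 of the 9 pairs with Rela were negative, down to -0.79 with Birc3. These are descriptions over libraries that share 2 groups and differ in leukocyte markers. The closest pair was Relb and Traf1 (r = 0.93), followed by Nfkbie and Traf1 (0.92) and Relb and Nfkbie (0.91), and Nfkb2 and Relb of the non-canonical arm had 0.87. Outside the 10, the genes most like Nfkb1 by this measure were Ly9 (r = 0.97), Fmnl1 (0.97) and H2-K2 (0.97), none of them called (adjusted p from 0.0626 to 0.172). Those most like Rela were Zfp655 (r = 0.95; log2 fold change -0.44 ± 0.060 SE), Padi3 (0.95; -2.73 ± 0.21) and Brpf1 (0.95; -0.33 ± 0.057), all of them called lower (adjusted p from 1.9e-04 to 0.00708). Because Rela was apart between the groups, genes picked from the same libraries by their r with it tend to be apart too. Their calls are therefore not a separate result.

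The levels were next set against the leukocyte score, a set of 10 relations over 10 libraries with permutation tests of 100000 resamples. Tnfaip3 followed the score with r = 0.88 (permutation p = 2.2e-04, adjusted over the 10 genes 0.00220; Spearman's rho 0.83, p = 0.00500, adjusted 0.0167). For Nfkb1 the relation was r = 0.92 (permutation p = 7.2e-04, adjusted over the 10 genes 0.00240; Spearman's rho 0.83, p = 0.00466, adjusted 0.0167), and for Nfkbie r = 0.88 (permutation p = 7.0e-04, adjusted over the 10 genes 0.00240; Spearman's rho 0.88, p = 0.00188, adjusted 0.0167). These 3 genes were high in the libraries rich in leukocyte markers and low in control library 2. Birc3 gave r = 0.77 (permutation p = 0.00420, adjusted over the 10 genes 0.0105; Spearman's rho 0.78, p = 0.00982, adjusted 0.0245). Relb gave r = 0.73 (permutation p = 0.0262, adjusted over the 10 genes 0.0437; Spearman's rho 0.65, p = 0.05004, adjusted 0.0776), and Rela, in the opposite direction, r = -0.71 (permutation p = 0.0215, adjusted over the 10 genes 0.0431; Spearman's rho -0.68, p = 0.0345, adjusted 0.0691). The adjusted Pearson p was under 0.05 for these 6, though by Spearman's rho for Relb and Rela it was not, and the remaining genes gave r of 0.64 (Traf1), 0.48 (Nfkb2), 0.45 (Rel) and 0.40 (Nfkbia). Their adjusted Pearson p-values ran from 0.0828 to 0.253 by permutation.

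Without control libraries 2 and 5, the libraries farthest from the median score, r was 0.89 for Tnfaip3, 0.74 for Nfkb1, 0.81 for Nfkbie and 0.78 for Birc3. It was -0.73 for Rela and 0.42 for Relb, so the relation of Relb rests on those libraries. Among the remaining genes r rose to 0.71 for Nfkbia, and it was 0.49 for Traf1, 0.36 for Rel and 0.089 for Nfkb2. With each group's mean removed from both measures, which leaves the relation inside the groups, r was 0.88 for Nfkb1, 0.84 for Nfkbie, 0.83 for Tnfaip3, 0.79 for Relb, 0.76 for Nfkb2, 0.66 for Traf1, 0.55 for Birc3, 0.45 for Nfkbia and 0.24 for Rel. For Rela it was -0.050, close to 0. With the score as a covariate, the fold changes of Nfkb1 (-0.052), Nfkbie (-0.14), Tnfaip3 (-0.11) and Traf1 (-0.37) turned negative, as did those of Relb (-0.18) and Nfkbia (-0.12). Those of Birc3 (0.10) and Rel (0.061) stayed positive, that of Nfkb2 was -0.30 and that of Rela -0.21. In that fit edgeR called 0 of the 10 genes and only 0.305% of all genes tested. At an unadjusted p under 0.05, 0 of the 10 were higher and 2 lower in that fit. The score and the label move together, and the part of leukocyte RNA in the levels of the 10 genes was not tested. The panels of gene level against score show these relations by library.

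**Figure D4:**
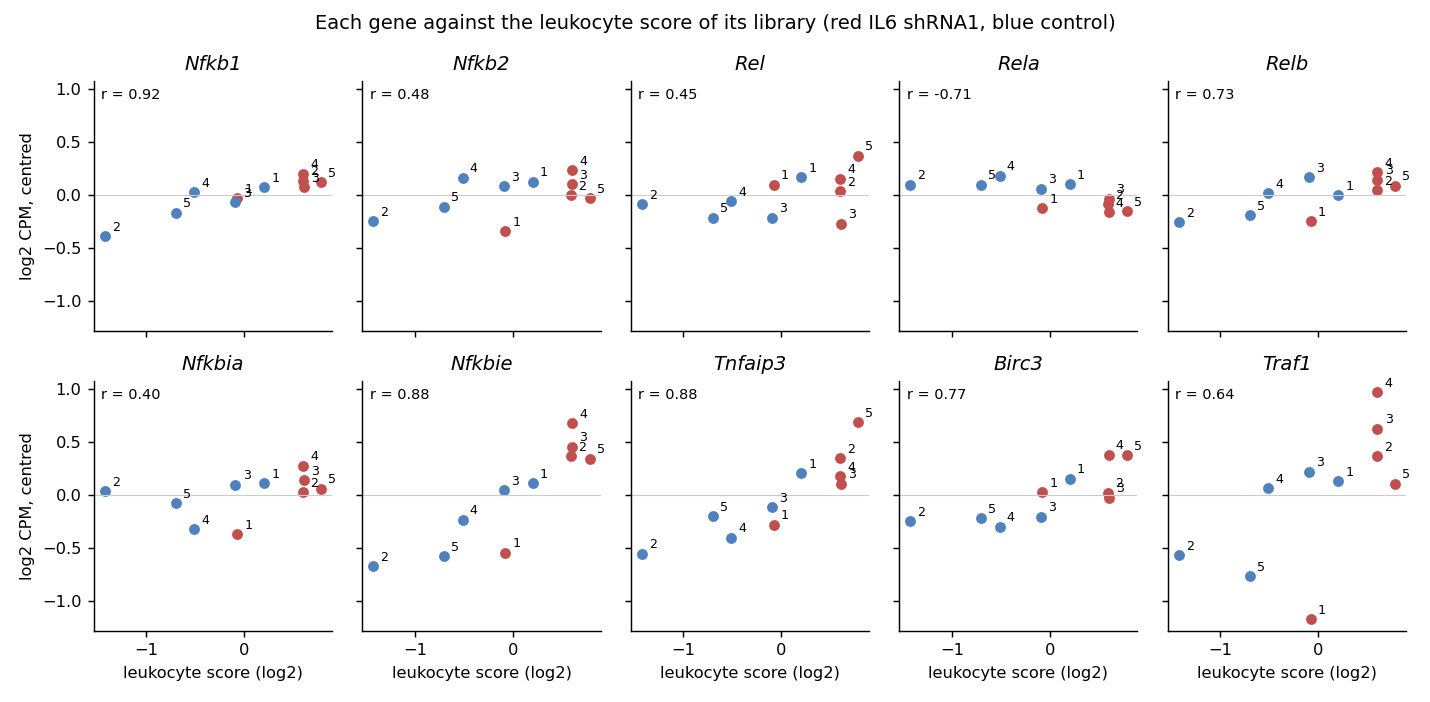
Log2 CPM of each gene, centred on its mean over the 10 libraries, against the leukocyte score of the library (log2 units), control in blue and libraries labelled IL6 shRNA1 in red, numbered as in the titles. Nfkb1, Nfkbie and Tnfaip3 climb with the score in both colours (r = 0.92, 0.88 and 0.88), whereas Rela splits by colour (r = -0.71).

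The wider pathway was read from 5 lists of 85 genes in all, of which 78 were tested, 10 were higher, 4 were lower and 64 were not called. Over all genes tested 5.62% were called higher and 6.16% lower, so that the lower count was near this background. The median log2 fold change of the 78 was 0.23, against -0.013 over all genes. Of 10 ligand genes 8 were tested and 3 were higher, with a median of 1.15. Il1b, the gene of interleukin-1 beta, was at 18.1, 34.4, 35.5, 18.4 and 20.7 CPM in libraries 1 to 5 labelled IL6 shRNA1 and at 11.8, 3.65, 7.43, 10.4 and 3.86 CPM in control. It rose with no overlap of the groups, from 7.43 ± 3.72 to 25.4 ± 8.76 CPM (log2 fold change 1.77 ± 0.37 SE, 95% interval 0.95 to 2.59, adjusted p = 0.0164). Of all genes tested, 4.81% were apart in that direction. Il1a, of interleukin-1 alpha, had 1.107 ± 0.476 against 0.361 ± 0.179 CPM (adjusted p = 0.0372, log2 fold change 1.62 ± 0.44 SE), and Tnf, of the founding TNF cytokine, had 4.33 ± 1.201 against 2.02 ± 0.875 CPM (adjusted p = 0.0449, log2 fold change 1.09 ± 0.31 SE), both with overlapping groups. Tnf lost its call without any 1 of IL6 shRNA1 libraries 2, 3, 4 and 5 and control libraries 2, 3, 4 and 5 (adjusted p from 0.0597 to 0.101), and Il1a without any 1 of IL6 shRNA1 libraries 2, 3 and 5 and control libraries 1, 3, 4 and 5 (adjusted p from 0.0631 to 0.0850).

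Of 11 receptor genes, all tested, 2 were higher and 3 lower, where 5.62% and 6.16% of all genes tested were. Tnfrsf1b, the gene of TNF receptor 2, was at 99.7 ± 13.01 against 65.1 ± 16.9 CPM (adjusted p = 0.0451, log2 fold change 0.61 ± 0.17 SE) and the Toll-like receptor gene Tlr2 at 48.4 ± 9.29 against 25.3 ± 10.01 CPM (adjusted p = 0.0477, log2 fold change 0.93 ± 0.27 SE). Ltbr, the gene of the lymphotoxin-beta receptor of the non-canonical arm, was lower at 106 ± 9.27 against 136 ± 3.69 CPM (adjusted p = 0.00881, log2 fold change -0.36 ± 0.067 SE), its groups not overlapping. In that direction 6.13% of all genes tested were apart. Tnfrsf1a, of TNF receptor 1, the most abundant receptor gene of the list, was lower at 204 ± 14.3 against 248.8 ± 16.1 CPM (adjusted p = 0.0251, log2 fold change -0.28 ± 0.069 SE). Tnfrsf13c, the BAFF receptor gene, fell as well, at low levels (0.226 ± 0.116 against 1.01 ± 0.351 CPM, adjusted p = 0.0102, log2 fold change -2.13 ± 0.41 SE, 1 to 31 counts per library). Tnfrsf1a, Ltbr and Rela, the receptor and subunit genes called lower at high counts, had folds of 0.822, 0.778 and 0.859. Tnfrsf1b lost its call without any 1 of IL6 shRNA1 libraries 2, 3, 4 and 5 and control libraries 2, 3, 4 and 5 (adjusted p from 0.0529 to 0.1), Tlr2 without any 1 of IL6 shRNA1 libraries 2, 3, 4 and 5 and control libraries 2, 3, 4 and 5 (adjusted p from 0.0582 to 0.107) and Tnfrsf1a without any 1 of IL6 shRNA1 libraries 2, 3 and 4 and control libraries 2 and 5 (adjusted p from 0.0559 to 0.0676).

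Of 22 adaptor and kinase genes 21 were tested, 0 were higher and 1 was lower by edgeR, with a median of 0.076. The gene called was Irak1, of the IL-1 receptor kinase, at 95.5 ± 4.10 against 109.7 ± 5.59 CPM (adjusted p = 0.0476, log2 fold change -0.20 ± 0.058 SE), whose call was lost without any 1 of IL6 shRNA1 libraries 2, 3, 4 and 5 and control libraries 1, 2, 3, 4 and 5 (adjusted p from 0.05004 to 0.108). The genes of the IKK complex were at 78.7 against 73.2 CPM (Chuk, adjusted p = 0.305), 60.9 against 59.9 CPM (Ikbkb, 0.831) and 38.1 against 38.5 CPM (Ikbkg, 0.923). Map3k14, the gene of NIK, was at 28.4 ± 4.31 against 21.02 ± 3.8 CPM (adjusted p = 0.0724, log2 fold change 0.43 ± 0.14 SE). Chuk, Ikbkb, Ikbkg and Map3k14 were chosen after the values were seen. Tab2, a TAK1 adaptor gene and the most abundant of the list in FPKM, was at 172 against 166 CPM (adjusted p = 0.695). At an unadjusted p under 0.05, 5 of the 21 were higher and 2 lower, and DESeq2 called 2 higher and 2 lower. Of all genes tested, 15.5% were higher at an unadjusted p under 0.05, and DESeq2 called 10% of its genes higher and 7.78% lower.

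Of 16 other inhibitor genes, all tested, 1 was higher and 0 lower by edgeR (1 lower at an unadjusted p under 0.05, 0 by DESeq2), with a median of 0.23. Irak3, the gene of the inhibitory kinase IRAK-M of macrophages, rose without overlap of the groups, at 8.44 ± 0.632 against 5.64 ± 1.27 CPM (adjusted p = 0.0417, log2 fold change 0.58 ± 0.16 SE), and its call was lost without any 1 of IL6 shRNA1 libraries 2, 3, 4 and 5 and control libraries 2, 3 and 5 (adjusted p from 0.0607 to 0.0936). The deubiquitinase gene Otulin, most abundant in FPKM, was at 34.7 against 33.7 CPM (adjusted p = 0.739). Of 26 target genes 22 were tested, 4 were higher and 0 lower (0 lower at an unadjusted p under 0.05, 0 by DESeq2), with a median of 0.44. They were Plau, of the protease urokinase (86.4 ± 13.2 against 46.6 ± 11.8 CPM, adjusted p = 0.0126, log2 fold change 0.89 ± 0.18 SE), Ptgs2, of the prostaglandin synthase COX-2 (227 ± 61.8 against 98.8 ± 36.3 CPM, adjusted p = 0.0199, log2 fold change 1.198 ± 0.26 SE), Cd83, of a surface protein of activated dendritic and B cells (14.3 ± 4.37 against 4.22 ± 2.43 CPM, adjusted p = 0.0299, log2 fold change 1.75 ± 0.43 SE), and Cflar, of the caspase-8 inhibitor cFLIP (79.1 ± 10.7 against 60.9 ± 6.52 CPM, adjusted p = 0.0387, log2 fold change 0.38 ± 0.10 SE). The groups overlapped for Ptgs2 and not for the other 3, and 4.81% of all genes tested were apart in the higher direction. Ptgs2 lost its call without any 1 of control libraries 2 and 5 (adjusted p from 0.0502 to 0.0504), Cd83 without any 1 of IL6 shRNA1 libraries 2, 3, 4 and 5 and control libraries 4 and 5 (adjusted p from 0.0519 to 0.0732) and Cflar without any 1 of IL6 shRNA1 libraries 2 and 5 and control libraries 2, 3 and 5 (adjusted p from 0.0671 to 0.0909), while Plau, Il1b, Ltbr and Tnfrsf13c kept theirs in each of the 10 omissions. The matrix protease gene Mmp9, most abundant in FPKM, stood at 245 ± 142 against 446 ± 91.2 CPM (adjusted p = 0.166, log2 fold change -0.86 ± 0.39 SE). With the leukocyte score as a covariate 0 of the 78 genes were called in either direction by edgeR, 4 higher and 4 lower at an unadjusted p under 0.05. That fit called only 0.305% of all genes in either direction. Without the 3 farthest libraries 0 were called in either direction, 12 higher and 4 lower at an unadjusted p under 0.05, in a fit that called 1.38% of all genes.

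**Figure D5:**
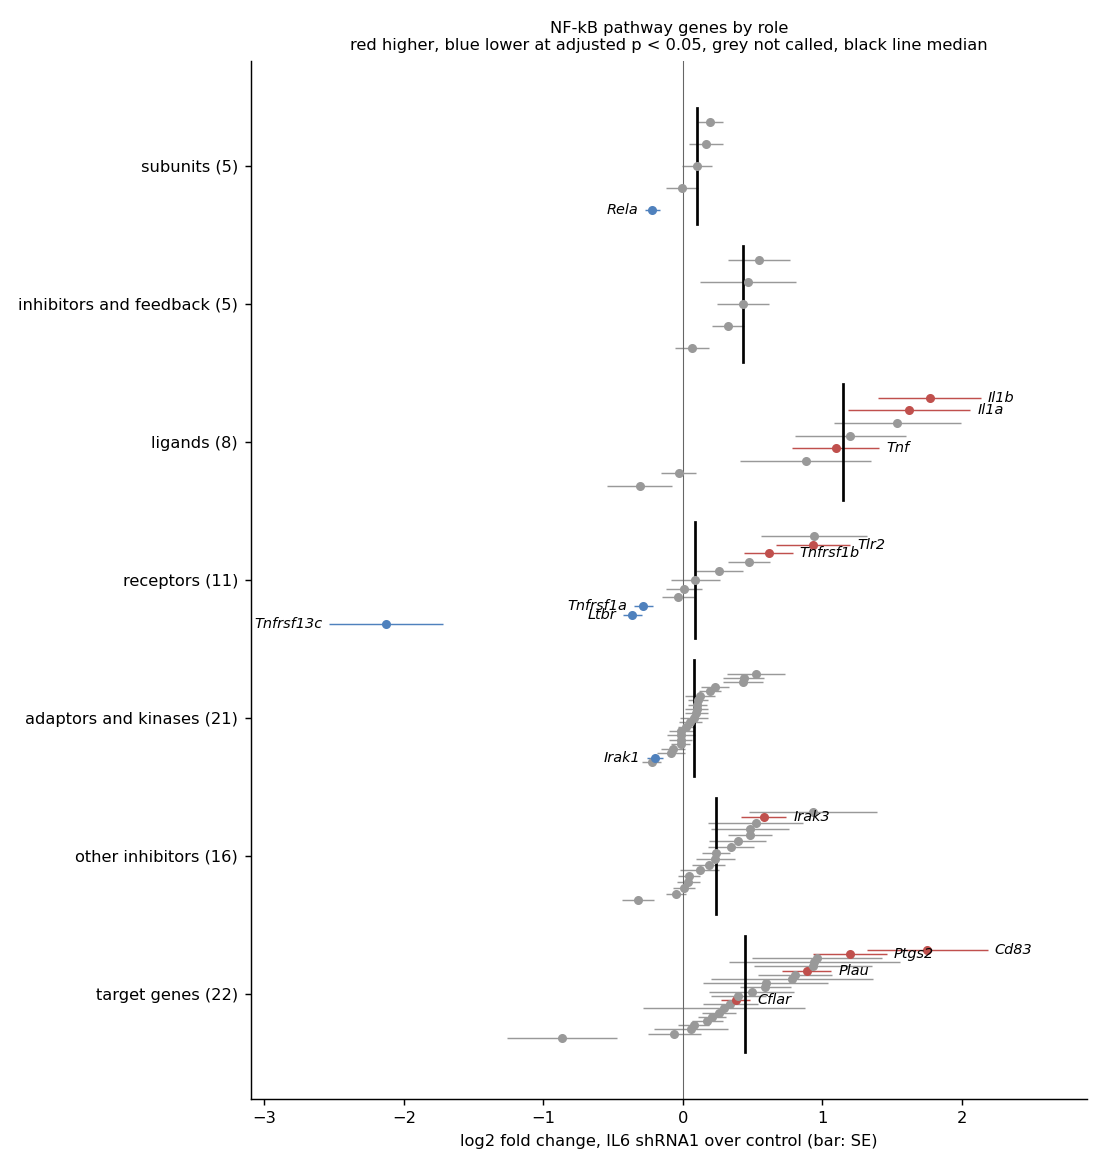
Log2 fold change of the libraries labelled IL6 shRNA1 over control, with SE, for the 10 genes and the tested members of 5 pathway lists; red and blue points passed the test, grey did not, and black lines are list medians. Subunits and adaptors lie near 0, and ligands reach a median of 1.15.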

How the data were processed

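RNA from 10 samples was sequenced, 5 labelled IL6 shRNA1 and 5 control shRNA, in 1 labelled batch. The raw counts per gene and the FPKM values are those the authors deposited, for 55385 genes. The submitters' processing notes list R 4.0.4, featureCounts, Subread 1.6.4, STAR 2.7.0f, SAMtools 1.11, FastQC 0.11.9 and Trim Galore 0.6.6, and the builds mm10 and GRCm38. On strand setting, annotation release and multi-mapped reads nothing is given in the sources used here. Each deposited FPKM value equalled the count over a fixed length and the column total (largest relative deviation 9.4e-07).

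Counts were tested in R 4.3.3 with edgeR 4.0.16 (filterByExpr, minimum count 10, 15064 genes; TMM; robust quasi-likelihood F test; Benjamini-Hochberg over all genes; called at an adjusted p under 0.05), which was tested on simulated data. In the simulation, 69 of 100 genes changed 2-fold and 95 of 100 changed 4-fold were called, with 8 false calls. Smaller changes were not simulated. Log2 CPM used a prior count of 2. Single values had exact permutation tests over 252 regroupings. Alternatives were other scaling and filters, DESeq2 1.42.0, limma 3.58.1 with voom or on log2 FPKM with pseudocounts of 1 and 0.1, a replicate block, the leukocyte score as a covariate, and omitted libraries. Members and gene lists were chosen with earlier results of these data known. Named were all 10 members, Il6, up to 4 called genes of each list by p (Tlr2, Map3k14, the IKK genes, Ptprc, Upk3b and the immediate early genes were added after their values were seen) and the most abundant by FPKM, and the 3 genes most like Nfkb1 and Rela. Promoter sequences are RefSeq's, build GRCm38.p6. Python 3.11.15 with pandas 2.3.3, scipy 1.17.1 and matplotlib 3.10.9 was used for tables and plots.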

Additional observations from a re-analysis of the deposited data

Results flagged for a closer look

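In 58 sets of 5 libraries, 1 library stood far from the other 4 by Dixon's test in 5, and chance gives about 1 in 20. IL6 shRNA1 library 1 was that library in 4 of the 5. Its Nfkbie level was 11.97 CPM against 22.2 to 28.04 CPM in the other 4, its Tlr2 level 32.3 against 48.9 to 55.3 CPM, and its Tnfrsf1a level 229 against 195 to 204 CPM. Its leukocyte score was -0.0750 against 0.60 to 0.79. Control library 1 stood apart for Birc3, at 31.6 CPM against 23.02 to 24.6 CPM in the other controls.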

How the results depend on the processing

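Over all genes the counts of 847 higher and 928 lower became 349 and 406 with the replicate block, 29 and 17 with the leukocyte covariate, and 130 and 82 without the 3 farthest libraries. DESeq2 called 1703 higher, limma on log2(FPKM + 0.1) 537 higher, and the fit with no filter 583 lower. Single omissions gave 415 to 1445 higher and 415 to 1329 lower. Of the pathway genes (10 higher, 4 lower), 4 higher and 2 lower were called with no filter, 2 lower with a 1 CPM filter, 19 higher by DESeq2 and 6 higher on log2(FPKM + 0.1). With edgeR and the replicate block 0 were higher (21 at an unadjusted p under 0.05) and 2 lower, and with the covariate 0 higher and 0 lower (4 and 4 at an unadjusted p under 0.05). Without the 3 farthest libraries 0 were higher and 0 lower (12 and 4 at an unadjusted p under 0.05). Single omissions gave 2 to 19 higher and 2 to 6 lower. The cause of these shifts was not tested.

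Rela kept its direction in all 21 alternatives and was not called in 11: log2 fold change -0.20 with no filter, -0.22 with the replicate block, -0.21 with the covariate, -0.22 without the 3 farthest libraries, -0.21 and -0.21 on log2 FPKM, and -0.23 to -0.20 over single omissions. Over single omissions Nfkbie ran from 0.45 to 0.71, Tnfaip3 from 0.30 to 0.57, Birc3 from 0.27 to 0.42, Traf1 from 0.26 to 0.70, Rel from 0.090 to 0.26, Relb from 0.066 to 0.18, Nfkb2 from -0.057 to 0.083 and Nfkbia from -0.0033 to 0.17. The sign turned with the covariate for Nfkb1 (-0.052), Relb (-0.18), Nfkbia (-0.12), Nfkbie (-0.14), Tnfaip3 (-0.11), Traf1 (-0.37) and Il6 (-0.67). It turned for Relb without the 3 farthest libraries (-0.015), and for Nfkb2 with RLE factors (0.0078), no filter (0.014), the 1 CPM filter (0.0092) and DESeq2 (0.0057). Title numbers did not pair the samples: deviations of same-numbered libraries correlated at -0.28 to 0.27 over genes. In the replicate block fit 0 of the 10 genes and 5.01% of all genes tested were called. At an unadjusted p under 0.05, 1 of the 10 was higher and 1 lower. Depth limits Traf1, at 79 to 389 counts per library, Il6, at 9 to 48, and Tnfrsf13c, at 1 to 31.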

Other observations

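Immediate early genes, which answer quickly to stimuli and to handling of tissue, were read beside the NF-kB genes. All 8 of the list were tested, and 3 of them passed the test, all higher, where 5.62% of all genes tested did. The list had a median log2 fold change of 0.47 against -0.013 over all genes tested. The genes called were Zfp36, of the mRNA decay factor tristetraprolin (44.8 ± 3.88 against 30.8 ± 5.48 CPM, adjusted p = 0.0190, log2 fold change 0.54 ± 0.12 SE; SD, n = 5), the phosphatase gene Dusp1 (28.5 ± 7.33 against 15.2 ± 3.38 CPM, adjusted p = 0.0175, log2 fold change 0.91 ± 0.20 SE) and the AP-1 subunit gene Fos (39.1 ± 9.57 against 22.8 ± 5.19 CPM, adjusted p = 0.0252, log2 fold change 0.78 ± 0.19 SE). Jun, its partner subunit gene, was at 175 ± 33.3 against 220.2 ± 60.5 CPM (adjusted p = 0.245, log2 fold change -0.33 ± 0.18 SE) and was not called. Among the 3 called genes the groups overlapped for Fos and not for Zfp36 and Dusp1. In the higher direction 4.81% of all genes tested were apart. Whether these 3 calls hold in the alternative fits is not given here.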
